A study of Homo sapiens with 12 samples.

Results

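Small spheroids of AU565 cells were compared with monolayers of the same cells across all genes. The comparison uses 6 of the 12 RNA sequencing libraries of the study, the 3 whose condition label reads small liquid overlay spheroid and the 3 labelled monolayer, chosen by label alone. AU565 is 1 established human breast carcinoma line that carries an amplified ERBB2 (HER2) gene and derives from the same patient as the line SK-BR-3, so nothing here speaks for other lines. Every library, the monolayers included, carries 1 treatment label, which names trastuzumab, a therapeutic antibody to ERBB2, followed by liquid overlay in 5% matrigel, with a time of 96 h. Cells are labelled WT, and were kept in RPMI with 10% fetal bovine serum. No library without the antibody was analysed here. The titles of the monolayer libraries, and of the large spheroid libraries used further below, carry the letters UP, and those of the small spheroids do not; no source used here gives the meaning of these letters, and whatever they mark cannot be told apart from the small format. Nothing says that replicates were separate cultures, so p-values reflect only how far libraries of a format varied, which may be a technical matter. That spread was estimated over all 12 libraries, which include a capsule format not compared here.

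A spheroid is a ball of cells grown without a surface to spread on. Its cells touch each other and secreted matrix on all sides, and oxygen and nutrients reach the inner cells only by diffusion. Cells short of oxygen keep the transcription factor subunits HIF1A and EPAS1 from being degraded, and these raise genes for glucose uptake, glycolysis, pH control and collagen processing. Contact, matrix and nutrient supply also act on the cell cycle, on the cytoskeleton and on how far a luminal breast cell makes its secreted products.

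Values are read counts per 1e6 counts (CPM) scaled by edgeR's trimmed mean of M values, one per library in replicate order. Differences are log2 fold changes of small spheroid over monolayer with their SE. Adjusted p-values are from edgeR's quasi-likelihood test with Benjamini-Hochberg adjustment over 15175 genes, and a gene with a value under 0.05 is said to have risen or fallen. The 3 monolayer libraries held 17216660 to 24729250 counts and the 3 small spheroid libraries 13971346 to 15709859. All 16 markers of HER2-positive luminal breast epithelium stood above 1 CPM in every library of both formats. Their sum was 17488 to 19157 CPM in monolayers and 27987 to 28597 CPM in small spheroids, with ERBB2 the largest part of it. Of the 16, 10 rose and 2 fell (median 0.58), but 3 were higher and 8 lower after a correction explained below (median -0.12).

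Genes of other cell types were also read. Those of melanocytes were far higher in all monolayers, and those of cardiac muscle in monolayers 1 and 2. Of 14 listed melanocyte markers 11 were measured, and they summed to 86.2, 134 and 62.7 CPM in the 3 monolayers and to 7.93, 12.2 and 8.64 CPM in the small spheroids. None of these 11 rose and 10 fell, beside 37% risen and 35.3% fallen among all tested genes (72.3% called in all). The 12 measured of 20 cardiac muscle markers summed to 245, 240 and 25.7 CPM in monolayers and to 16.7, 13.3 and 19.3 CPM in small spheroids, with 1 risen and 9 fallen. Monolayer 3 was near the small spheroids for cardiac genes and not for melanocyte genes. The 17 measured of 23 fibroblast and mesenchymal markers summed to 205, 220 and 136 CPM against 134, 154 and 144 CPM, and their ranges overlapped. Of 16 of these tested 3 rose and 10 fell, with a median of -1.36, so the sums hide that most fell. After the correction 2 were higher and 8 lower (median -1.16). Against monolayer 3 alone the median was nearer to no change, at -0.43. The 7 measured endothelial markers summed to 27.5, 31 and 29.7 CPM against 56.9, 63.8 and 62.6 CPM, with 4 risen and 2 fallen of 6 tested (2 higher and 2 lower after the correction). The 5 measured leukocyte markers summed to 55.9 to 62.5 against 45.2 to 55.5 CPM, with 1 risen and 1 fallen of 3 tested (0 higher and 3 lower after the correction). What part these genes take in other differences was not tested, and for several genes that could belong to them a value against monolayer 3 alone is given as well. Where these reads came from was not tested, so they do not show that cells of these types were in the cultures. In bulk libraries fewer cells of a type and less RNA per cell cannot be told apart either.

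**Figure D1:**
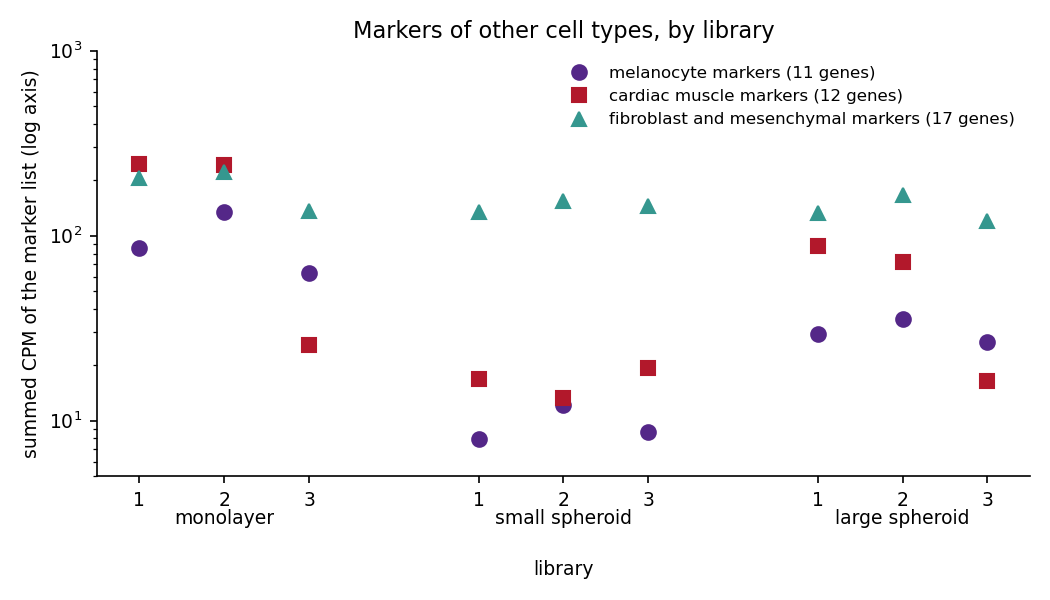
Summed CPM (log axis) of the melanocyte, cardiac muscle and fibroblast marker lists in each monolayer, small spheroid and large spheroid library, 1 point a library and list. Melanocyte markers lie at 62.7 to 134 CPM in monolayers and at 7.93 to 12.2 CPM in small spheroids, and cardiac markers at 240 and 245 CPM in monolayers 1 and 2 but at 25.7 CPM in monolayer 3.

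The single markers show what was read. TYRP1, a melanosome enzyme, stood at 25.7, 31.4 and 14.9 CPM in monolayers, and the small spheroid libraries together held 3 counts of it. The monolayer level was 336 times higher (95% counting interval 115 to 1629). Of the 3 counts 2 lay in small spheroid 3, and the fitted log2 fold change went from -8.23 to -9.18 without it. PMEL, the melanosome fibril protein, went from 25.9, 42.2 and 22.1 to 3.33, 2.73 and 3.6 CPM, and the other melanocyte genes MLANA (-7.14) and MITF (-1.23, the lineage's transcription factor) fell too. MLANA came to -6.44 without monolayer replicate 2 and to -6.52 without small spheroid replicate 1. SOX10, a neural crest factor, had 1 count in small spheroids against 315 in monolayers, and GPR143, a pigment cell receptor, had 0 against 243, at least 50.8-fold lower against a floor of 3 counts over the format. POSTN, a matrix protein of fibroblasts, had 0 counts against 26.3, 28.6 and 10.7 CPM, at least 303-fold lower. GJA1, a gap junction subunit, fell from 20.9, 21 and 9.73 to 0.533, 0.151 and 0.612 CPM (-4.46 against monolayer 3 alone), and ACTA2, smooth muscle actin, from 9.89, 9.12 and 5.05 to 0.533, 0.227 and 0.306 CPM (-3.77 against monolayer 3 alone). Of the cardiac genes, MYH7 stood at 83.4, 85.7 and 0.0918 CPM in monolayers and MYH6 at 68.7, 66.3 and 0 CPM, against 0.0667, 0.151 and 0.306 and 0.0667, 0.0757 and 0.382 CPM in small spheroids. Monolayers 1 and 2 held these myosins and monolayer 3 did not, so against monolayer 3 alone neither was lower, and limma-voom called neither.

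Not every mesenchymal marker was lower. COL1A1, the fibrillar collagen chain, rose from 8.73, 8.08 and 8.26 to 26.1, 23.9 and 25.9 CPM. S100A4, a calcium-binding protein, rose from 43.9, 37.1 and 33.2 to 65.8, 90.7 and 56.9 CPM, with a corrected value, explained below, of 0.15 (adjusted p = 0.389). VIM, the mesenchymal intermediate filament, fell from 42, 60.6 and 38.2 to 6.07, 7.88 and 10.8 CPM (-2.52 ± 0.27, -2.22 against monolayer 3 alone). Among endothelial markers EGFL7 rose from 10.9, 11.7 and 11.8 to 30.2, 36.3 and 32.1 CPM before the correction (1.52) and stood at -0.22 after it (adjusted p = 0.164), and ESAM rose from 7.08, 9.08 and 8.4 to 21.5, 20.8 and 22.6 CPM, whereas CDH5, the defining cadherin of endothelium, fell from 7.52, 7.39 and 6.52 to 1.8, 2.88 and 2.52 CPM. CSF1R, a macrophage receptor that carcinoma cells can also carry, fell from 21.4, 17.2 and 21.5 to 3.27, 5.07 and 5.2 CPM.

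Most genes differed. Of 15175 tested, 5618 rose (37%) and 5350 fell (35.3%), and 4637 (30.6%) did so by at least 2-fold. With library totals as scaling the balance turned, to 4817 higher and 6236 lower. Libraries of the formats did not overlap for 11841 genes (78%). With so many calls, a list with about 37% of its members risen is no different from the table as a whole, so each list below is set beside these shares and beside the median over all tested genes, a log2 fold change of 0.01.

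The size of the differences followed base composition. Over 14638 genes with a known transcript, Spearman's rho between GC content and log2 fold change was 0.668, a description across genes, which are not independent replicates and which share libraries. Genes were split into 10 equal bins by GC content. In the lowest bin (30.2 to 38.7%) 3.28% rose, 80.1% fell, and the median was -0.97. In the highest bin (61.8 to 83.9%) 85.6% rose, 1.84% fell, and the median was 1.15. Gene-dense chromosome 19 had a median of 0.63, and chromosomes 18 and 13 had medians of -0.55 and -0.50. Whether this trend arose in the cells or in making the libraries was not tested. A correction was therefore made, in which a smooth curve of level on GC content and transcript length was removed from each library. Its result is called the corrected value. It is given for counts or medians of most lists, many single genes, and each gene named as risen or fallen whose call or direction the correction changed. After the correction rho was 0.005, and 9293 of 14638 genes were called (63.5%), 4001 with a higher level (27.3%) and 5292 with a lower one (36.2%). At least a 2-fold change was left for 2210 (15.1%), and the median was -0.09. Of the 10968 first calls, 10691 had a corrected value: 6326 (59.2%) were called again in the same direction and 1137 in the opposite one.

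**Figure D2:**
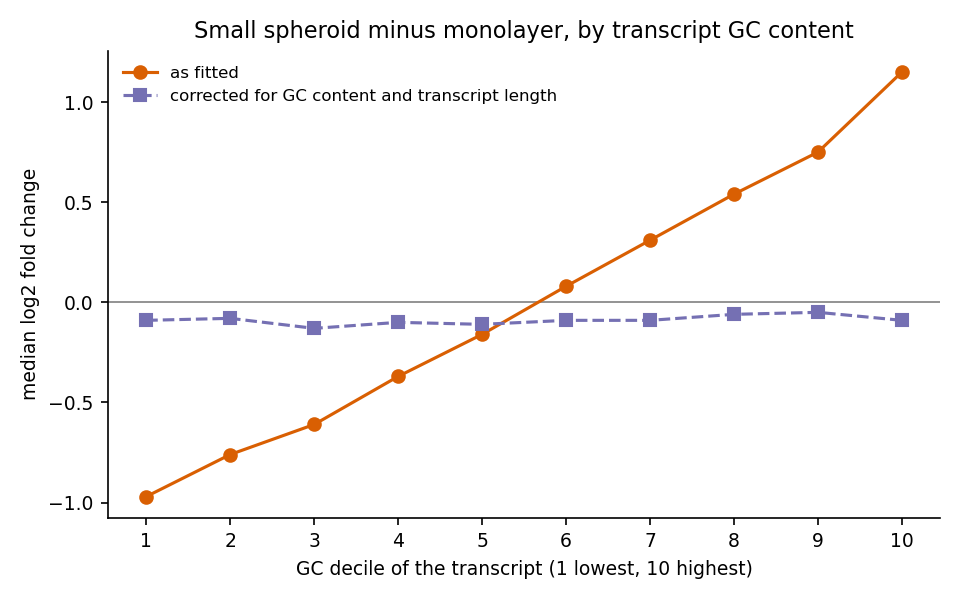
Median log2 fold change of small spheroid over monolayer in 10 equal bins of genes by transcript GC content, as fitted (circles) and corrected for GC content and transcript length (squares). Medians run from -0.97 in the lowest bin to 1.15 in the highest as fitted, and lie between -0.13 and -0.05 when corrected.

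The clearest gain was in secreted products of luminal and apocrine breast cells. Of the 20 tested, 18 rose and none fell, with a median of 1.92, and after the correction 18 were higher and 1 lower, with a median of 1.56. SCGB2A2, mammaglobin A (chr11:62270158-62273160 in GRCh38.p14), stood at 40.6, 40.2 and 41.6 CPM in monolayers and at 1553, 2262 and 1575 CPM in small spheroids. Every small spheroid library lay far above every monolayer library, and the fold was 44 (log2 5.46 ± 0.15, adjusted p = 2.74e-13, corrected 5.90). Its partner in the secreted complex, SCGB1D2, went from 2.1, 2.42 and 2.16 to 108, 156 and 100 CPM (53.9-fold, corrected 5.5), and SCGB2A1, another secretoglobin of the same cluster, from 1.11, 1.46 and 0.872 to 12.6, 19.5 and 11.4 CPM (12.4-fold). TFF3, a trefoil peptide of mucus (chr21:42311667-42315409), went from 1.38, 1.58 and 1.97 to 38.9, 58.8 and 40.7 CPM (27.8-fold, corrected log2 4.11).

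Further secreted genes moved the same way at higher starting levels. AZGP1, a zinc-binding glycoprotein of apocrine cells, rose from 314, 317 and 329 to 1237, 1458 and 1297 CPM. AGR2, a disulfide isomerase needed to fold mucins, rose from 199, 186 and 184 to 382, 489.6 and 403 CPM (corrected 1.53). SLPI, a protease inhibitor of secretions, rose 2.63-fold, and CST3, cystatin C, 4.31-fold. MUC1, the apical mucin, rose from 59.2, 64.4 and 64.1 to 414, 371 and 410.3 CPM, but its log2 fold change of 2.67 came to 0.62 after the correction. LCN2 (-0.05, adjusted p = 0.703) and CEACAM6 (-0.13, adjusted p = 0.167) did not pass, and LCN2 stood lower after the correction (-0.87, adjusted p = 1.09e-07). The factors that direct luminal fate moved less evenly: of 24 tested, 11 rose and 8 fell (median 0.23), and 8 and 8 after the correction. FOXA1, the pioneer factor of luminal cells, rose from 184, 173 and 179.6 to 312, 311 and 308 CPM, TFAP2A rose 2.35-fold and ZNF703, a luminal oncogene, 8.87-fold, from 5.75, 6.08 and 4.64 to 47.6, 54.1 and 44.8 CPM. TRPS1, a zinc finger repressor of breast epithelium, fell from 371, 368 and 351 to 143, 157 and 152 CPM. The oestrogen receptor ESR1 was low, at 1.82, 1.16 and 1.7 CPM against 0.333, 0.53 and 0 CPM.

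**Figure D3:**
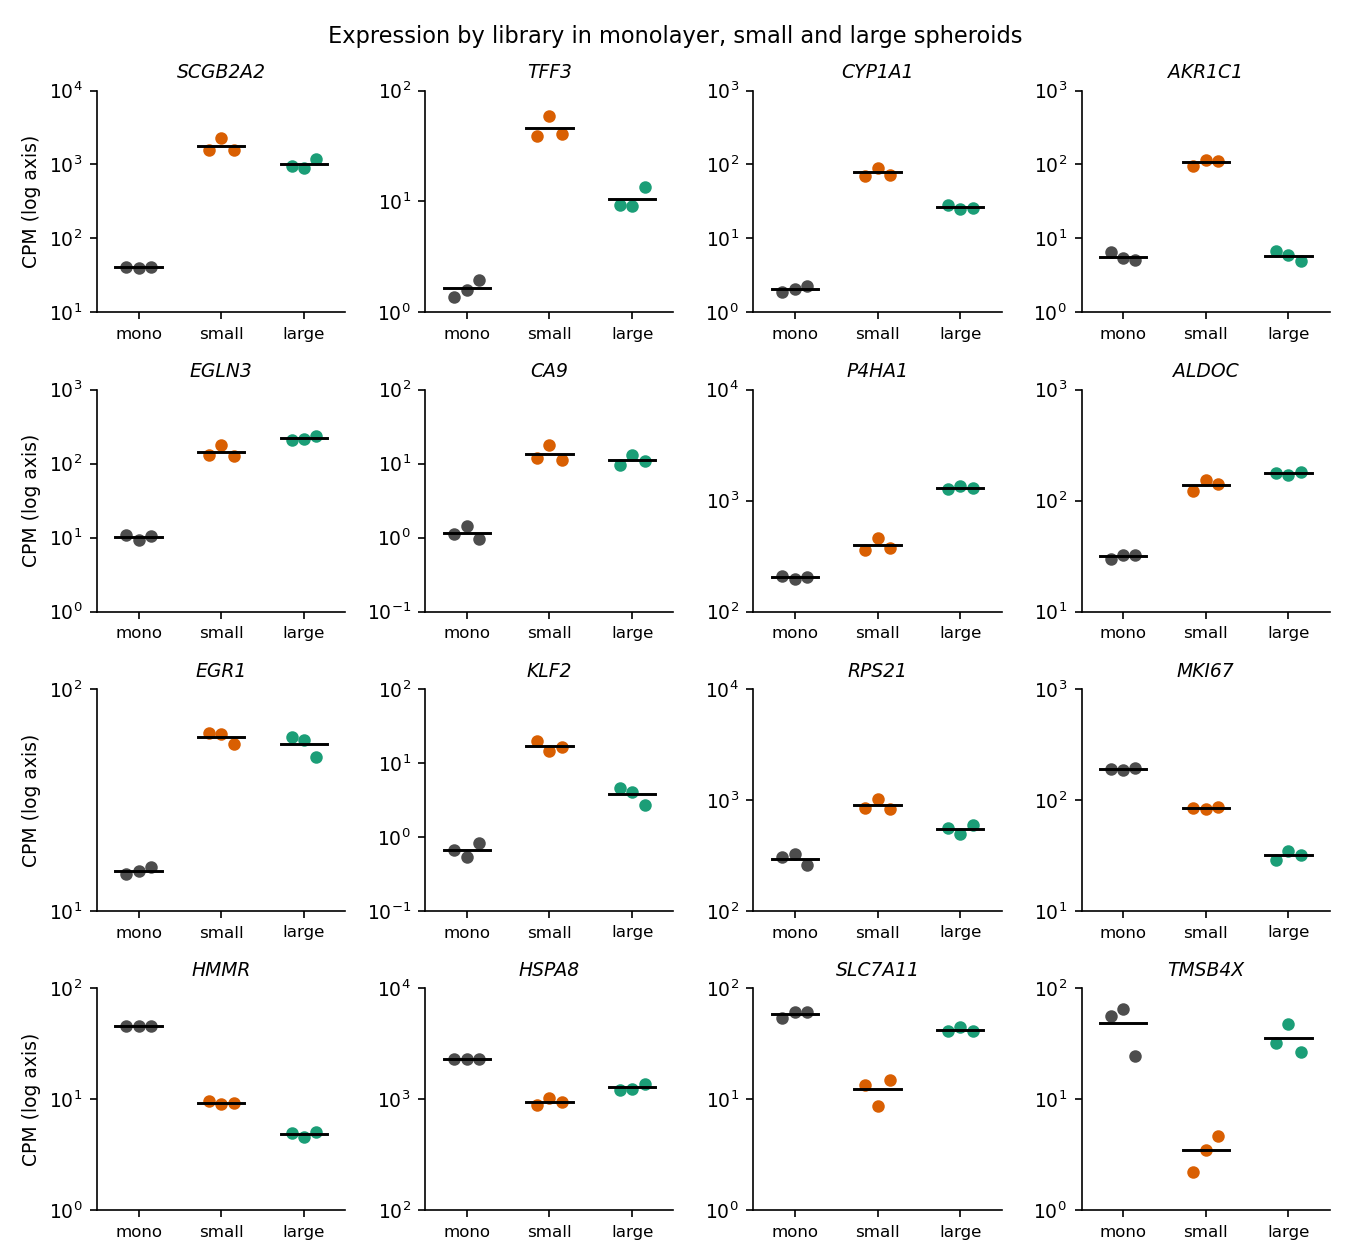
CPM (log axis) of 16 genes in monolayer, small and large spheroid libraries, 1 point a library, with a bar at the mean of each format. For SCGB2A2 the small spheroid libraries lie at 1553 to 2262 CPM and the monolayers at 40.2 to 41.6 CPM, and for MKI67 the 3 formats step down from monolayer to small to large spheroid.

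Genes of the oxygen response moved by role. HIF subunits and oxygen sensors, listed together, were mixed, with 5 risen and 4 fallen of 10 tested, and 5 higher and 2 lower after the correction. HIF1A, the regulated subunit, is controlled mainly at the protein. Its RNA fell from 229, 206 and 208 to 106, 117 and 108 CPM, with a corrected value of -0.06 (adjusted p = 0.578). EPAS1, the second regulated subunit, fell 1.73-fold to 306, 335 and 333 CPM (corrected log2 -1.04). EGLN3, a prolyl hydroxylase that marks HIF subunits for degradation and is itself induced by them (chr14:33924227-33951074), stood at 10.9, 9.31 and 10.4 CPM in monolayers and 130, 177 and 128 CPM in small spheroids. The formats did not overlap, and the fold was 14.3 (adjusted p = 1.43e-11, corrected log2 3.74). EGLN1, the main sensor in normal oxygen, rose less, from 49.4, 49.3 and 49.2 to 70.8, 79 and 64.7 CPM. CITED2, which competes with HIF1A for its coactivator, rose from 114, 106 and 124 to 431, 473 and 409.9 CPM.

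Among hypoxia-inducible surface, secreted and signalling genes 13 of 17 rose and 2 fell, with a median of 0.63, and after the correction 14 were higher and 2 lower with a median of 1.13. CA9, the carbonic anhydrase that exports acid (chr9:35673928-35681159), stood at 1.11, 1.42 and 0.964 CPM in monolayers against 11.9, 18 and 11.2 CPM in small spheroids (11.6-fold, adjusted p = 1.25e-09, corrected log2 2.60). Every small spheroid library was far above the highest monolayer. NDRG1, a stress-induced differentiation gene, went from 322, 344 and 353 to 2154, 2625 and 2176 CPM (6.82-fold) and ANKRD37, a small HIF target, from 0.608, 0.308 and 0.643 to 6, 7.72 and 7.04 CPM (13.5-fold). VEGFA, the vessel growth factor, moved less, from 170, 172 and 159.7 to 268, 257 and 246 CPM (0.62 ± 0.10, corrected 0.42). BHLHE40, a repressor tied to the clock, rose 4.13-fold, STC1, a glycoprotein hormone, 2.85-fold and DDIT4, an inhibitor of mTORC1, 2.44-fold with a corrected log2 value of 0.51.

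Enzymes that modify collagen, several of them HIF targets, rose in 10 of 12 cases with 1 fall (median 0.94), and 9 of 12 were higher and none lower after the correction (median 0.72). P4HA1, the catalytic prolyl hydroxylase of collagen (chr10:73007217-73096866), stood at 208, 199 and 206 CPM against 359.9, 457 and 375 CPM. LOXL2, a lysyl oxidase that cross-links collagen, rose from 2.87, 2.81 and 1.52 to 11, 17 and 11.8 CPM (5.5-fold). ERO1A, which supplies disulfide bonds in the endoplasmic reticulum, went from 86.3, 87.9 and 83.8 to 157, 165 and 162 CPM, and its sister gene ERO1B fell from 26.5, 24.1 and 24.4 to 13.2, 14.8 and 15.8 CPM before the correction (-0.78) and stood at 0.09 after it (adjusted p = 0.542). The histone demethylases, which also use oxygen and several of which are HIF targets, went the other way, 3 risen and 9 fallen of 15 (median -0.35, corrected -0.24). JMJD1C fell from 96.1, 91.9 and 84.9 to 37.5, 37.6 and 35.7 CPM and KDM5B, a demethylase of active promoters, from 216, 189.6 and 193 to 106, 117 and 112 CPM, while KDM4B rose from 35.1, 31.7 and 36.2 to 65.5, 70.5 and 68.5 CPM.

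HIF binds the letters ACGTG or GCGTG. Promoter windows of RefSeq (GRCh38.p14, 250 bases before the start to 50 after it) were searched on both strands for this core. It stood in 62.5% of the windows of 11671 tested genes and in 48.4% of all 27305, so it is a common string, and it stood in 10 of 13 hypoxia-inducible genes (76.9%), 7 of 10 collagen enzymes (70%) and 16 of 23 glycolysis genes (69.6%). A match describes letters and is no evidence of binding. Stretches upstream of the start of 5 risen genes, chosen after their values were seen, show how the core can lie. They are on the gene's own strand, capitals mark the core on either strand (CACGT and CACGC are the core read on the other strand), and the genes are ANKRD37 (chr4:185396661-185396840, plus strand), BHLHE40 (chr3:4979187-4979306, plus), P4HA1 (chr10:73096867-73096986, minus), ERO1A (chr14:52695619-52695738, minus) and CA9 (chr9:35673808-35673927, plus).
ANKRD37: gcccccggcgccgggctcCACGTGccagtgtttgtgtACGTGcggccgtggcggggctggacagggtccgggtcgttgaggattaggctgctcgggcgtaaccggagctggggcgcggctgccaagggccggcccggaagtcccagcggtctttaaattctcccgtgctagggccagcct
BHLHE40: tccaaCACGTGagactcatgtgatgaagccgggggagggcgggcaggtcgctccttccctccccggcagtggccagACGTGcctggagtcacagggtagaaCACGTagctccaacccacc
P4HA1: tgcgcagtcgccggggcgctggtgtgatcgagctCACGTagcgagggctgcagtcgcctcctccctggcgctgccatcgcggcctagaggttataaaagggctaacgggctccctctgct
ERO1A: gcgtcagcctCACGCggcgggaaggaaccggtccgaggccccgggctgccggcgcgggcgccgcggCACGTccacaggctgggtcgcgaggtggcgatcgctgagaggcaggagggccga
CA9: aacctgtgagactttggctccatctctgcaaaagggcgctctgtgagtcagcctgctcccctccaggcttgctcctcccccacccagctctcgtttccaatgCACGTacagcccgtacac
ANKRD37 and BHLHE40 hold the palindrome CACGTG, which reads as a core on both strands. CA9 and P4HA1 hold 1 core each in the stretch shown.

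Genes of glucose handling mostly rose. Of 24 transporters and enzymes of glycolysis 19 rose and 1 fell (median 0.785), and 13 were higher and none lower after the correction (median 0.41). SLC2A1, the basal glucose transporter, rose from 145, 146 and 174 to 334, 349.9 and 347 CPM. ALDOC, an aldolase, rose 4.39-fold from 30.1, 32.3 and 32.2 to 122, 154 and 141 CPM (corrected log2 1.46), and the main isoform ALDOA 2.57-fold. PFKP, the platelet-type phosphofructokinase, rose 2.83-fold, and ENO1, enolase, 2.25-fold from 1274, 1260 and 1391 to 2689, 3270 and 2853 CPM. PDK1, the kinase that keeps pyruvate out of mitochondria, stood at 16.5, 16.8 and 16.6 CPM against 24.5, 27.6 and 23.3 CPM, and its log2 fold change of 0.59 was larger after the correction, at 1.5. For PFKL, the liver-type isoform, the correction did the reverse, from 1.19 to 0.14 (adjusted p = 0.0803). HK2, the inducible hexokinase, stood at 457, 469.8 and 489.8 CPM and 468, 466 and 501 CPM and did not pass (adjusted p = 0.862).

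Inside mitochondria the cycle enzymes and the respiratory chain differed in direction. Of 26 genes of the tricarboxylic acid cycle 6 rose and 13 fell (median -0.17, corrected -0.21), among the fallen DLD, the shared lipoamide dehydrogenase, from 258, 259 and 264 to 141, 137 and 133 CPM, and IDH1, the cytosolic isocitrate dehydrogenase, from 304, 299.9 and 280 to 161, 179 and 159 CPM. IDH2, the mitochondrial NADP-dependent form, rose from 152, 145 and 150.4 to 384, 409 and 385 CPM (corrected 0.86). Nuclear subunits of complex I rose in 25 of 38 cases and fell in 7 (median 0.58), with 20 higher and 5 lower after the correction (median 0.28). Those of complexes III to V rose in 22 of 35 and fell in 5 (median 0.57), with 23 higher and 6 lower after it (median 0.41). ATP5F1D, the delta subunit of ATP synthase, rose 4.59-fold, from 23.6, 21.7 and 24.4 to 111, 117 and 91.6 CPM, with 0.91 left of a log2 fold change of 2.20. NDUFA3, a complex I subunit, went from 2.1, 2.19 and 2.48 to 11.9, 13.4 and 11.9 CPM. NDUFS1, the largest complex I subunit, fell from 237, 243 and 254 to 135, 137 and 141 CPM, with a corrected value of -0.14 (adjusted p = 0.0737). Of the 13 genes encoded in mitochondrial DNA 7 rose and 3 fell (median 0.375, corrected 0.36). ND6, the one protein gene of the light strand, rose from 804, 809 and 750.3 to 2429, 2344 and 2733 CPM, and ND4L fell from 1592, 1695 and 1347 to 763, 718 and 844 CPM. Mitochondrial genes overlap and lie on opposite strands, and no source used here says whether the counting used strand, so these single values are uncertain.

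Genes for removing mitochondria and for autophagy showed no common direction, with 5 risen and 5 fallen of 14, and 5 higher and 7 lower after the correction. BNIP3, a mitophagy receptor and HIF target, stood at 102, 104 and 102 CPM and 106, 118 and 109 CPM and did not pass (adjusted p = 0.28). PINK1, a kinase that marks damaged mitochondria, rose from 33.4, 28.9 and 32.6 to 56.2, 65.9 and 56.3 CPM. ATG5, part of the conjugation system of autophagosomes, fell from 65.8, 61 and 57.9 to 23.8, 27.1 and 24.9 CPM (corrected -0.56).

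Mitosis genes mostly fell. Of 46 tested, 37 fell and 2 rose (median -0.93), and 38 were lower and 2 higher after the correction (median -0.62). MKI67, the proliferation antigen (chr10:128096659-128126423), stood at 191, 185 and 196 CPM in monolayers and at 84.8, 83 and 85.7 CPM in small spheroids. No library of one format came near the other, and the difference was -1.17 ± 0.11 (adjusted p = 3.18e-08, corrected -0.93). HMMR, a spindle assembly protein, fell 4.89-fold, from 45.4, 45.8 and 45.7 to 9.67, 9.09 and 9.18 CPM (corrected -1.44). The checkpoint kinase TTK went from 35.7, 31.3 and 29.2 to 7.6, 10.3 and 8.34 CPM (corrected -1.28), and CENPE, a kinetochore motor, from 59.5, 59.6 and 60.2 to 14.1, 14.7 and 16.8 CPM (corrected -0.88).

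The rest of the mitotic machinery followed by role. Of the cyclins and their kinase, CDK1 fell from 62.1, 67 and 64.5 to 23.7, 23.4 and 21 CPM, CCNB2 2.22-fold and CCNA2 1.88-fold. Of the spindle motors, KIF14 fell 4.32-fold, KIF18A 3.44-fold and KIF4A 2.19-fold. TOP2A, which untangles chromosomes, fell from 572, 588 and 609 to 259, 265 and 266 CPM, and its log2 fold change of -1.16 came to -0.39 after the correction. PLK1, a master kinase of mitosis, stood at 43.9, 46.1 and 58.7 CPM against 47.8, 50.8 and 50.3 CPM and did not pass (0.00, adjusted p = 0.998), yet was lower after the correction (-0.54, adjusted p = 0.000329). CDC20, the activator of the anaphase complex, behaved likewise, at -0.19 (adjusted p = 0.114) and -0.95 after the correction.

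Replication genes fell less evenly, with 10 risen and 17 fallen of 33 (median -0.245), and 4 higher and 20 lower after the correction (median -0.30). RRM2, the regulated subunit of ribonucleotide reductase, fell from 75.8, 81.4 and 85.4 to 39.3, 39.3 and 41.8 CPM (corrected -0.81). MCM3, a subunit of the replicative helicase, rose from 29.1, 29.3 and 30.3 to 50.9, 53.1 and 52.7 CPM (corrected 0.60), while POLD1, a replicative polymerase, rose 2.28-fold and stood at -0.03 after the correction (adjusted p = 0.752). Among genes of the G1 to S passage 7 of 23 rose and 6 fell. MYC, a driver of growth, rose from 95.1, 100 and 106 to 257, 286 and 260.4 CPM (1.41 ± 0.10, corrected 0.96). RB1, the brake on E2F factors, fell 3.72-fold from 91.4, 89.1 and 87.3 to 24.4, 22.4 and 25.2 CPM (corrected log2 -1.04). E2F1 rose from 22.3, 21.5 and 22.3 to 42.7, 41 and 43.1 CPM and stood at -0.09 after the correction (adjusted p = 0.252), while CCND1, cyclin D1, did not pass at -0.04 (adjusted p = 0.613, corrected -0.16, adjusted p = 0.0298). Of 8 inhibitors of cyclin-dependent kinases 4 rose and 3 fell. CDKN1A, p21, rose from 8.62, 8.47 and 9.41 to 12.4, 16.8 and 16.2 CPM, with a corrected value of 0.06 (adjusted p = 0.795), and did not pass against monolayer 3 alone (0.68, adjusted p = 0.0556). CDKN2C, an inhibitor of CDK4 and CDK6, rose from 9.51, 9.28 and 10.6 to 22.1, 23.8 and 20.3 CPM (corrected 0.52).

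Mitotic genes are often held by a CCAAT box together with the cell cycle homology region TTTGAA. The latter stood in the promoter windows of 30 of 40 mitosis genes (75%), against 9.92% of tested genes, 15.4% of all windows and 1 of 29 replication genes (3.45%). CCAAT stood in 31 of 40 mitosis genes (77.5%), 17 of 29 replication genes (58.6%) and 36.6% of tested genes. Both were searched on both strands, and ATTGG below is CCAAT read on the other strand. Mitosis genes with TTTGAA had a median of -1.14 (23 of 30 fell, corrected median -0.60) and those without it a median of -0.83 (9 of 10 fell, corrected -0.73). The stretches below, chosen after values were seen, come from CCNB2 (chr15:59105006-59105145, plus strand), HMMR (chr5:163460452-163460631, plus), KIF4A (chrX:70289984-70290103, plus) and MKI67 (chr10:128126424-128126543, minus), with both motifs in capitals.
CCNB2: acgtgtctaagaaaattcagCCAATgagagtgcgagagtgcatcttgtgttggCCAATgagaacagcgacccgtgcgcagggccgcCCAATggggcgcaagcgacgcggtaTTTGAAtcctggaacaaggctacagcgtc
HMMR: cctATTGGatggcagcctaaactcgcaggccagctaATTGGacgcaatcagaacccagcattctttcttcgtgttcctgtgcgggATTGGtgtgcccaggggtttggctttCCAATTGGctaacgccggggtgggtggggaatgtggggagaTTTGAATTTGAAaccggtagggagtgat
KIF4A: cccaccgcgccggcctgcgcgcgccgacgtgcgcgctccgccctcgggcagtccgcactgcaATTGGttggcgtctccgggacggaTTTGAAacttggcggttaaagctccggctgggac
MKI67: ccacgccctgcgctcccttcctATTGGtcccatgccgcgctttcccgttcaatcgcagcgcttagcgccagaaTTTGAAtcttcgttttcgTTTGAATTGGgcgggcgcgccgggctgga
CCNB2 shows CCAAT boxes spaced upstream of 1 TTTGAA close to the start. In HMMR and MKI67 some capitals belong to motifs that touch or overlap.

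Replication-dependent histones, whose RNAs end without a poly(A) tail, mostly did not pass: 6 rose and 5 fell of 33, and 4 were higher and 13 lower after the correction. H4C8 went from 1.44, 1.69 and 1.29 to 7, 12.9 and 8.64 CPM (6.37-fold, corrected log2 2.90).

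Cytosolic chaperones more often fell than rose. Of 24 heat shock proteins and helpers 13 fell and 4 rose (median -0.52), and 20 were lower and 2 higher after the correction (median -0.50). HSP90AA1, the stress-inducible HSP90 (chr14:102080742-102139749), stood at 3325, 3162 and 3225 CPM in monolayers and 1210, 1423 and 1241 CPM in small spheroids. All 3 small spheroid libraries lay under every monolayer (-1.33 ± 0.11, adjusted p = 7.96e-09, corrected -1.09). HSPA8, the constitutive HSP70, fell from 2325, 2310 and 2316 to 881, 1036 and 940.3 CPM (corrected -1.25), HSPH1, its exchange factor, 2.94-fold and the co-chaperone DNAJB4 4.4-fold. HSPB1, the small heat shock protein HSP27, rose from 1013, 756 and 763 to 2398, 3025 and 2483 CPM, with 0.28 left of 1.64 after the correction. The heat shock element, in which GAA alternates with its reverse complement over 3 units spaced by NN, was searched on both strands and stood in 4 of 21 windows of this list (19%) against 0.317% of tested genes and 0.487% of all. List members with the element had a median of -0.89 (3 of 4 fell, corrected -0.29) and those without it a median of -0.64 (10 of 17 fell, corrected -0.68). HSPA8 (chr11:123062137-123062256, minus strand) and CHORDC1 (chr11:90223050-90223169, minus strand) show the element, in capitals. CHORDC1, an HSP90 partner, fell from 61.2, 46.8 and 50.2 to 21.9, 24.2 and 21.5 CPM (corrected -0.22). They were chosen after their values were seen.
HSPA8: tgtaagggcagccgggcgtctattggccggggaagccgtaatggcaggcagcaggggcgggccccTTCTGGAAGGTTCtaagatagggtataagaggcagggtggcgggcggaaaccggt
CHORDC1: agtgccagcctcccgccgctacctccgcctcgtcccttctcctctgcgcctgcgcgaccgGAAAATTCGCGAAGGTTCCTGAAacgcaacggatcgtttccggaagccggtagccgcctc
HSPA8 holds 1 element in the stretch shown. In CHORDC1 elements overlap in a single run.

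Chaperones of the endoplasmic reticulum went both ways. Of 23 genes of the unfolded protein response 9 rose and 9 fell, and after the correction 13 were higher and 5 lower (median 0.19). HSPA5, BiP, the main chaperone of that compartment, rose from 643, 663 and 693 to 916, 975 and 994 CPM (0.53 ± 0.08, corrected 0.72), and CRELD2 rose 2.08-fold. DNAJC3, an inhibitor of the kinase PERK, fell from 294, 270.3 and 273 to 109, 113 and 109 CPM (corrected -0.63). Targets of ATF4, the factor of amino acid shortage, had 16 risen and 7 fallen of 29 (median 0.35), but 7 higher and 15 lower after the correction (median -0.25), so the list's direction turned with it. VLDLR, a lipoprotein receptor that is also a HIF target, rose from 6.47, 8.31 and 8.26 to 23.7, 29 and 24.9 CPM (corrected 2.34), and SLC7A11, the cystine importer, fell from 54.2, 60.7 and 61.3 to 13.4, 8.63 and 14.8 CPM (corrected -1.15). CTH, which makes cysteine, fell from 23.7, 21.5 and 23.3 to 7.4, 9.09 and 6.96 CPM (corrected -1.29).

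Genes of protein synthesis and breakdown split. Of 77 ribosomal protein genes 67 rose and 3 fell (median 0.68), and 57 were higher and 8 lower after the correction (median 0.58). RPS21 rose 3.02-fold from 306, 325 and 259 to 849.9, 1013 and 823 CPM, whereas RPS26 fell from 40, 38.8 and 34.8 to 15.6, 14.6 and 13.4 CPM. These genes have many pseudogene copies, so single values are uncertain. Proteasome subunits fell in 17 of 31 cases and rose in 7 (median -0.28, corrected -0.21); PSMD12, a lid subunit, fell from 185, 183 and 195 to 76.1, 85.2 and 79.5 CPM (corrected -0.42). Lysosome genes rose in 17 of 31 and fell in 9 (median 0.30), with 13 higher and 10 lower after the correction (median 0.03). CTSD, the main aspartic protease of the lysosome, rose from 3888, 4110 and 4508 to 8891, 9215 and 9306 CPM (corrected -0.09, adjusted p = 0.283, on the other side of 0). ATP6V1A, a proton pump subunit, fell from 155, 150.3 and 144 to 60.3, 68.3 and 61 CPM (corrected -0.63).

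Of 17 ERBB receptors, ligands, adaptors and feedback genes 10 rose and 2 fell (median 0.59), and 9 higher and 6 lower after the correction (median 0.30). ERBB2, the target of the antibody (chr17:39688094-39728658), stood at 7460, 7345 and 8146 CPM in monolayers and 11587, 11230 and 11776 CPM in small spheroids. The formats did not overlap, yet the log2 fold change of 0.59 ± 0.11 (adjusted p = 0.000112) came to 0.04 after the correction (adjusted p = 0.622). Its amplicon neighbour GRB7, an adaptor, rose by 0.61 and was lower after the correction (-0.24, adjusted p = 0.00102). EGFR, the partner receptor, rose from 82.7, 85.4 and 88.2 to 166, 186 and 178 CPM (1.05 ± 0.10), and here the corrected value was 1.30. ERBB3, the kinase-impaired partner, rose from 271, 273 and 301 to 359, 338 and 373 CPM (corrected 0.16), and did not pass against monolayer 3 alone (0.24, adjusted p = 0.0991). Of the feedback inhibitors, ERRFI1 rose from 35.5, 31.7 and 29.3 to 56, 56 and 55.2 CPM and LRIG1 from 63.6, 65.2 and 71.5 to 132, 136 and 127 CPM, both also after the correction, and CBL, the ubiquitin ligase of these receptors, fell from 132, 126 and 112 to 63.9, 68.6 and 66.2 CPM. NRG1, the ligand of ERBB3, had 0 counts in small spheroids against 1.66, 1.31 and 0.597 CPM, at least 16.1-fold lower; it was chosen after its value was seen, and other cell types can express it. It was also called lower against monolayer 3 alone (adjusted p = 0.00328).

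Immediate early and feedback genes of the ERK pathway rose in 22 of 33 cases and fell in 5 (median 0.66), with 18 higher and 5 lower after the correction (median 0.32). EGR1, an early growth response factor (chr5:138465479-138469303), stood at 14.7, 15.1 and 15.8 CPM against 63.1, 62.5 and 56.6 CPM, a 4-fold rise with no overlap (adjusted p = 2.44e-10, corrected log2 1.53). FOS rose from 2.38, 3.69 and 2.66 to 14.4, 17 and 15.5 CPM and NR4A2, an orphan nuclear receptor, from 6.85, 7.7 and 6.93 to 31.2, 33.9 and 29.5 CPM. KLF2, a factor known for its answer to fluid shear in endothelium, rose 25-fold, from 0.663, 0.539 and 0.826 to 19.5, 14.5 and 16.7 CPM (corrected log2 3.28). ETV4, an ETS factor downstream of ERK, rose from 5.31, 5.93 and 4.73 to 29, 28.7 and 29.5 CPM, while SPRY2, a feedback inhibitor chosen after its values were seen, fell from 2.43, 3.27 and 1.15 to 0.2, 0.833 and 0.535 CPM. SPRY2 did not pass against monolayer 3 alone (-1.15, adjusted p = 0.116). JUND and JUNB rose 4.08-fold and 3.12-fold, but their corrected log2 values were 0.05 and 0.27. EGR1 is held by serum response factor at CArG boxes, and its upstream stretch (chr5:138465349-138465428, plus strand), the 1 of 24 windows in this list with a match (4.17%, against 1.06% of tested genes), reads as follows with the boxes in capitals.
EGR1: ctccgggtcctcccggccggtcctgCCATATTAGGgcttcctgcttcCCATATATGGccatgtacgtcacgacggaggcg
The stretch holds 2 boxes.

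Along the PI3K and FOXO arm 8 of 25 genes rose and 9 fell, and 12 were higher and 6 lower after the correction. BCL6, a FOXO-induced repressor, rose from 38.9, 37.4 and 36.6 to 107, 117 and 110.2 CPM, GADD45A, a stress sensor, from 18.5, 19.3 and 18.4 to 59.9, 58.3 and 64.8 CPM and TXNIP, an inhibitor of glucose uptake, from 84.7, 119 and 128 to 164, 176 and 184 CPM (corrected 0.97). TXNIP did not pass against monolayer 3 alone (0.45, adjusted p = 0.086). BBC3, PUMA, a trigger of apoptosis, rose 4.37-fold but came to 0.14 after the correction (adjusted p = 0.27). KLHL24, a FOXO target, fell from 161, 155 and 156 to 48.1, 55.7 and 52.7 CPM (corrected -0.61), and SESN3, a stress-induced brake on mTORC1, 2.78-fold.

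**Figure D4:**
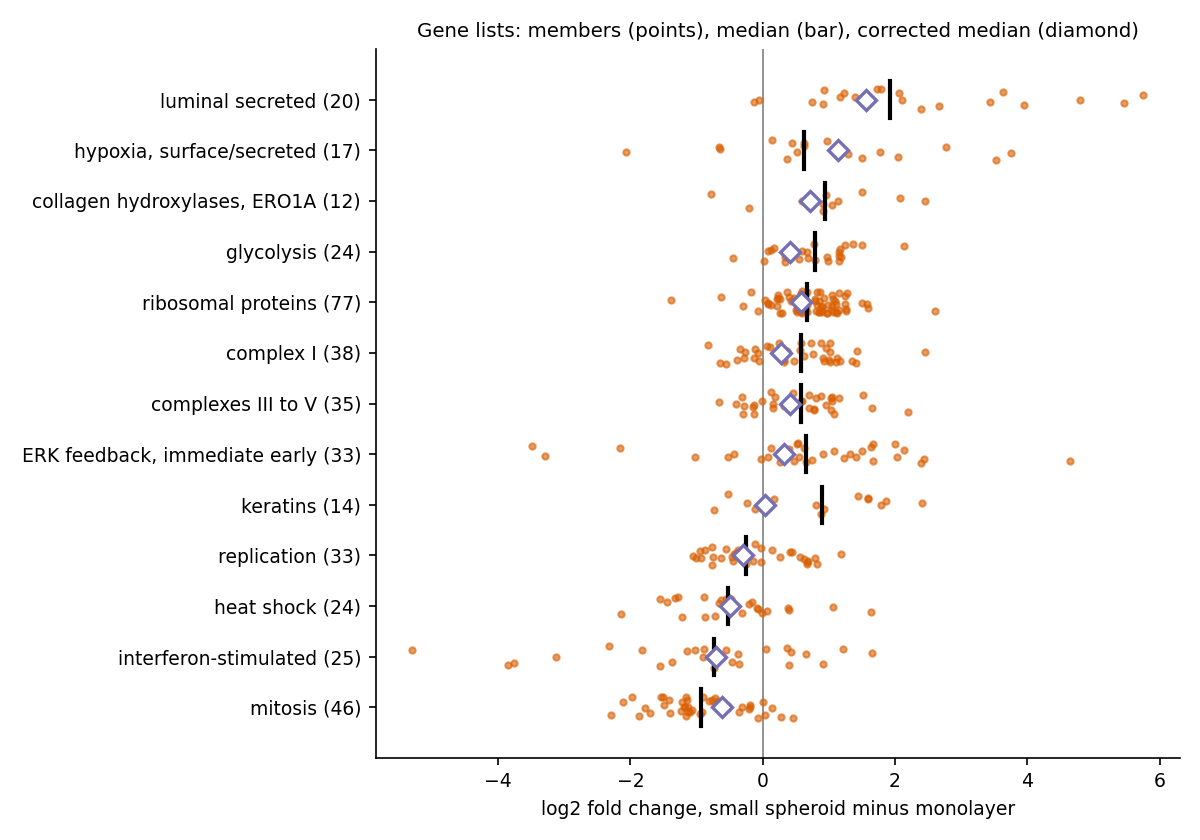
Log2 fold change of small spheroid over monolayer for the tested members of 13 gene lists (points, number in brackets), with each list's median as fitted (bar) and corrected (diamond). Medians of luminal secreted products (1.92 and 1.56) and of mitosis genes (-0.93 and -0.62) lie on one side of 0 both times, while that of keratins goes from 0.90 to 0.04.

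Genes that give an epithelial cell its shape and contacts were mixed. Of 14 keratins 9 rose and 2 fell (median 0.90), but 5 were higher and 6 lower after the correction (median 0.04). KRT19 rose from 1711, 1772 and 1951 to 4834, 4980 and 4944 CPM (corrected 0.33), KRT10 5.29-fold (corrected log2 2.05) and KRT86, a hair keratin whose reads can be shared with KRT81, 3.47-fold. KRT18, the simple epithelial keratin, fell from 1018, 1037 and 1073 to 859.8, 888 and 902 CPM (-0.24 ± 0.07, corrected -0.84). CDH1, E-cadherin, was barely read in either format, and which cells its few reads came from was not tested. Monolayers held 0.608, 1.81 and 1.38 CPM of CDH1 and small spheroids 3 counts in all, a ratio of 18.4 (95% counting interval 6.09 to 90.9). Its fitted log2 fold change went from -4.03 to -4.97 without small spheroid replicate 3. Of 18 genes of adherens junctions and desmosomes 7 rose and 8 fell, and 5 were higher and 3 lower after the correction. JUP, plakoglobin, rose from 610, 585 and 721 to 1237, 1248 and 1266 CPM (corrected 0.11) and DSC2, desmocollin, fell from 162, 152 and 154 to 80.7, 80.9 and 77.9 CPM (corrected -0.02). Of 21 tight junction and polarity genes 6 rose and 11 fell (median -0.24), and 3 and 10 after the correction. The polarity scaffolds PALS1 (154, 148 and 144 to 50.3, 52.9 and 50.9 CPM) and PATJ (215, 203 and 209 to 100.2, 106 and 105 CPM) fell, also after the correction (-0.84 and -0.52).

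Receptors for matrix and matrix genes showed both directions. Of 19 integrins and related receptors 9 rose and 6 fell. ITGA5, which binds fibronectin, rose from 9.84, 9.31 and 11.6 to 27.2, 36.5 and 34 CPM (corrected 1.29), and so did its ligand FN1, from 37.6, 36.7 and 28 to 60.7, 83.1 and 69.5 CPM (1.06 ± 0.14, corrected 1.70). ITGB4, the hemidesmosome integrin, rose 3.58-fold (corrected log2 0.83), whereas ITGB1, the common beta subunit, fell from 305, 294 and 284 to 133, 149.5 and 138 CPM (corrected -0.41) and ITGB6 from 17.3, 16.6 and 17.6 to 7, 6.44 and 6.04 CPM (corrected -0.74). Of 27 matrix genes 13 rose and 8 fell (median 0.39), with 9 higher and 11 lower after the correction (median -0.13). Against monolayer 3 alone, which held the least POSTN and COL5A2 of the monolayers, the median was 0.84. HSPG2, perlecan, a basement membrane proteoglycan, rose from 29.6, 27.7 and 32.3 to 105, 94.1 and 104 CPM (corrected 0.83). COL12A1, a collagen that decorates fibrils, fell from 60, 52 and 48.9 to 7.47, 8.56 and 8.64 CPM, -2.57 against monolayer 3 alone.

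Of 33 genes of actin and of SRF and YAP targets 14 rose and 12 fell (median 0.20), but 7 were higher and 20 lower after the correction (median -0.28), and the median against monolayer 3 alone was 0.18. TEAD1, the DNA-binding partner of YAP, fell from 206, 187 and 191 to 63.5, 58 and 63.3 CPM (corrected -0.96) and VCL, vinculin of focal adhesions, from 366, 365 and 382 to 208, 214 and 222 CPM (corrected -0.41). TMSB4X, which binds free actin, fell from 56.7, 64.7 and 24.4 to 2.2, 3.48 and 4.67 CPM; monolayer 3 was the lowest monolayer, and the difference against it alone was -2.84. ANKRD1, a YAP target that heart muscle also makes in quantity, had 3 counts in small spheroids against 10.2, 8.08 and 2.94 CPM, a ratio of 95.7 (32.5 to 466). Its fitted log2 fold change went from -6.46 to -7.40 without small spheroid replicate 3 and to -5.85 without replicate 1, and was -5.20 against monolayer 3 alone. TAGLN2 rose from 199, 204 and 224 to 469.6, 479.8 and 495 CPM (corrected 0.47). Of 15 tubulins 10 rose and 2 fell (median 0.68), with 8 higher and 5 lower after the correction (median 0.35), TUBB2B going from 2.38, 2.04 and 1.7 to 12, 10.8 and 11.9 CPM (corrected 1.83).

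Interferon-stimulated genes were lower on balance. Of 25 tested, 16 fell and 6 rose (median -0.74), and 14 were lower and 3 higher after the correction (median -0.71), and the median against monolayer 3 alone was -0.615. SAMD9, an antiviral restriction factor (chr7:93099518-93117979), stood at 32.4, 29.4 and 27 CPM in monolayers and at 1.67, 3.11 and 1.84 CPM in small spheroids, with no overlap (-3.75 ± 0.19, corrected -2.75, -3.62 against monolayer 3 alone). IFIH1, the sensor MDA5, fell from 52, 52.8 and 52.9 to 20.1, 19.2 and 21.7 CPM (corrected -0.98), and IFIT1, a well-known target, from 1.44, 3.04 and 0.689 to 0.133, 0.151 and 0.306 CPM. IFIT1 was highest in monolayer 2. With that library left out its difference went from -3.13 to -2.39. PARP14, chosen by its fold change, fell from 11.9, 12.2 and 12.7 to 1.33, 1.74 and 1.45 CPM (corrected -2.42). IFI6 rose from 54.4, 63.6 and 58 to 172, 202 and 179 CPM and OAS1, a synthetase that activates RNase L, from 21.7, 24.1 and 23.5 to 53.3, 57.6 and 50.3 CPM (corrected 1.16), so the list did not move as one. In antigen presentation by MHC class I 5 of 15 rose and 7 fell (median -0.34), with 1 higher and 9 lower after the correction. B2M, the light chain of these molecules, fell from 301, 308 and 298 to 213, 242 and 222 CPM, with a corrected value of 0.09 (adjusted p = 0.288) and of -0.41 against monolayer 3 alone (adjusted p = 0.104). NF-kB genes had 8 risen and 4 fallen of 16, and 5 and 6 after the correction. REL fell from 58.4, 56.3 and 52.6 to 19, 19.1 and 18.9 CPM (corrected -0.61), and NFKBIA, the inhibitor that the pathway induces, rose from 60.9, 53.6 and 55.3 to 100, 116 and 109.5 CPM (corrected 0.43).

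Enzymes of foreign compounds and redox balance held some of the highest folds. CYP1A1, a cytochrome induced through the aryl hydrocarbon receptor (chr15:74719542-74725528), stood at 1.88, 2.08 and 2.25 CPM in monolayers and at 70.6, 90.3 and 73.1 CPM in small spheroids. This was a 37.4-fold rise (adjusted p = 1.43e-11, corrected log2 4.84), and CYP1B1 rose 2.65-fold, but the other genes of this pathway did not follow: 2 of 8 rose and 5 fell (median -0.49), among them AHRR, the receptor's repressor and target, from 29.6, 28.9 and 32.6 to 20.6, 22.9 and 22.6 CPM and TIPARP from 23.8, 21 and 19.6 to 10.2, 11.3 and 10.9 CPM. After the correction 3 of the 8 genes of this pathway were higher and 4 lower (median -0.155). Of 28 NRF2 targets 9 rose and 11 fell, and 5 were higher and 14 lower after the correction (median -0.34). The aldo-keto reductase AKR1C1 rose from 6.52, 5.5 and 5.05 to 96.6, 114 and 112 CPM (19-fold, corrected log2 4.81) and AKR1C2 from 18.6, 16.2 and 17.2 to 75.7, 105 and 83.9 CPM; the genes are closely alike and can share reads. FTH1, ferritin heavy chain, rose from 392, 321 and 267 to 819.5, 791 and 875 CPM (corrected 1.0). GCLM, the regulatory subunit of glutathione synthesis, fell from 81.9, 79.5 and 77.7 to 26.5, 32.1 and 28.1 CPM (corrected -0.61), and TXNRD1, thioredoxin reductase, from 1582, 1488 and 1490 to 726, 871 and 751 CPM (corrected -0.68). Of 4 genes of metal handling 2 rose and 1 fell, with the metallothionein MT2A up from 8.79, 10.5 and 8.26 to 19, 16.1 and 18.1 CPM (corrected 0.30).

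Lipid genes gave no common direction before the correction. Of 25 genes of cholesterol synthesis and uptake 10 rose and 11 fell (median 0.00), and 2 were higher and 13 lower after it (median -0.24). HMGCS1, the first committed enzyme, fell from 86.4, 96.3 and 94.3 to 45.7, 50.9 and 46.9 CPM (-0.95 ± 0.15, corrected -0.31), ACAT2 from 40.7, 40.7 and 41.5 to 20.3, 21.1 and 19.7 CPM (corrected -1.14) and IDI1 from 80.2, 74.7 and 74.5 to 30.7, 37.8 and 34.3 CPM (corrected -0.60). Of 24 genes of fatty acid synthesis and storage 12 rose and 9 fell (median 0.25), and 7 and 7 after the correction. FASN, fatty acid synthase, stood at 2661, 2738 and 3163 CPM against 3335, 3151 and 3427 CPM and did not pass (0.21 ± 0.11, adjusted p = 0.0913), with a corrected value of -0.90 (adjusted p = 1.58e-08) on the other side of 0. HILPDA, a hypoxia-induced lipid droplet protein, rose from 138, 147 and 180.2 to 358, 406 and 395 CPM (corrected 1.02), DGAT2, which makes triglyceride, 4.11-fold (corrected log2 1.84), and ELOVL5, an elongase, fell from 155, 160.2 and 159 to 67.5, 69.3 and 71.7 CPM (corrected -0.69).

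The genes with the highest and lowest fold changes at 10 CPM or more add to these groups. PPFIA4 (chr1:203026491-203078736), a liprin induced by hypoxia in some cells, rose from 1.16, 1 and 0.964 to 31.3, 36.6 and 33.6 CPM (32.5-fold, corrected log2 4.45). LRRC26, an auxiliary subunit of potassium channels in secretory epithelium, rose from 9.01, 6.62 and 5.65 to 233, 253 and 202 CPM, and its log2 fold change of 5.03 came to 2.18 after the correction. TMEM238 (0.553, 0.847 and 0.643 to 22.3, 32.9 and 15.3 CPM) and TMEM61 (0.553, 0.847 and 0.413 to 11.5, 17.5 and 10.9 CPM) also rose. At the other end, OLR1, a scavenger receptor for oxidized lipoprotein, fell from 50.7, 53.3 and 48.2 to 4.27, 3.41 and 6.58 CPM (corrected -2.85), and WDR17 from 21, 23.1 and 19.3 to 3.2, 2.88 and 2.22 CPM (corrected -1.88). COL5A2, a fibrillar collagen, fell from 12.1, 11.4 and 6.89 to 0.8, 0.606 and 0.841 CPM, -3.19 against monolayer 3 alone.

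Of 10 short structured noncoding RNAs tested 8 rose and 1 fell (median 1.73), with 4 higher and 3 lower after the correction. For those named here, 1 small spheroid library held most of the small spheroid signal. RN7SK, the RNA that holds back the elongation factor P-TEFb, stood at 0.663, 0.731 and 0.138 CPM in monolayers and at 5.13, 5 and 52.3 CPM in small spheroids. RPPH1, the RNA of ribonuclease P, stood at 1.11, 0.308 and 0.551 and 5.13, 2.95 and 51.4 CPM, and SNORD3A, the U3 RNA, at 3.26, 2.42 and 2.07 and 4.6, 4.09 and 48.4 CPM. Small spheroid 3 was far above the other small spheroids for each. Without small spheroid replicate 3 the log2 fold changes fell from 5.30 to 3.25 for RN7SK, from 4.98 to 2.68 for RPPH1, and from 2.88 to 0.73 for SNORD3A, which then did not pass.

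**Figure D5:**
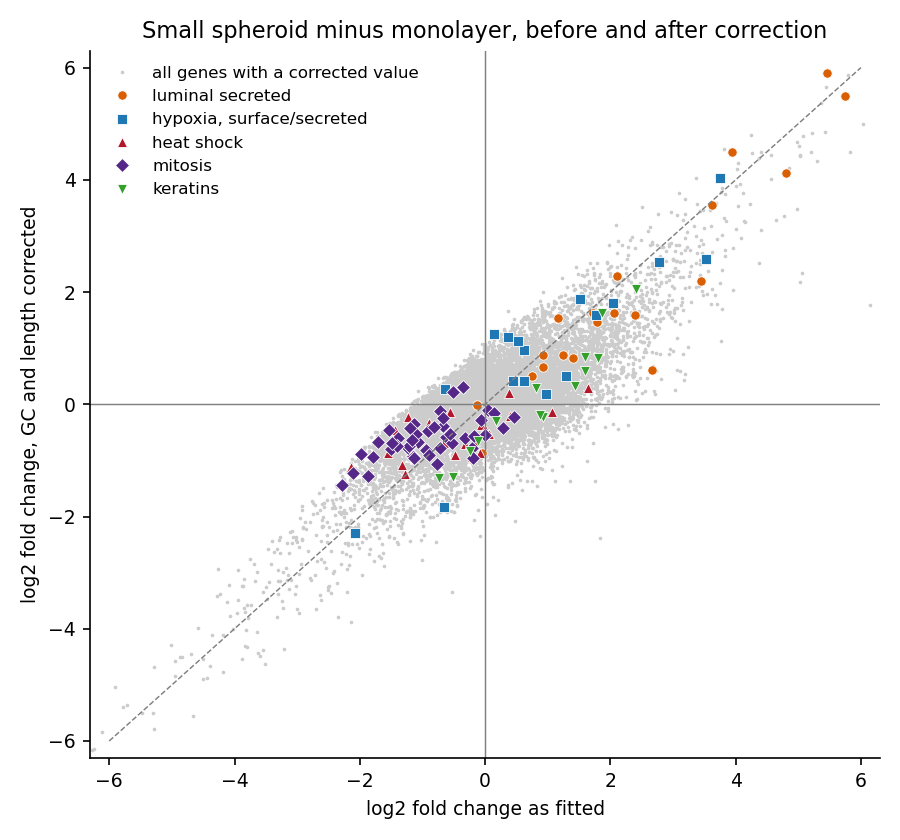
Corrected against fitted log2 fold change of small spheroid over monolayer, 1 point a gene, for 14603 genes (35 more lie outside the axes), with the members of 5 lists in colour and a dashed line where both values are equal. Keratins lie below that line, with medians of 0.90 and 0.04, and luminal secreted genes stay high on both axes, with medians of 1.92 and 1.56.

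Large spheroids, labelled with the same treatment and time, were compared with small spheroids directly, since comparisons of each with monolayers would share those libraries. Of 15175 genes 4992 stood higher in large spheroids (32.9%) and 5072 lower (33.4%), 3005 of them at least 2-fold (19.8%), and after the correction 7804 of 14638 (53.3%), 1549 of them at least 2-fold. Differences between large and small spheroids followed GC content with a rho of -0.657. Between large spheroids and monolayers rho was 0.189. These comparisons share libraries with that of small spheroids and monolayers, so the trends are not separate findings. Melanocyte markers summed to 29.3, 35.6 and 26.6 CPM in large spheroids and cardiac markers to 87.4, 72.1 and 16.3 CPM, so large spheroids 1 and 2 were above all small spheroids for both.

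Mitosis genes went further down in large spheroids, 44 of 46 being lower than in small ones (median -1.12, corrected -1.37). MKI67 stood at 28.6, 35 and 31.8 CPM there (-1.41, adjusted p = 1.77e-08, corrected -1.53). Of the 17 hypoxia-inducible surface, secreted and signalling genes 10 stood higher in large spheroids than in small ones and none lower (median 0.60, corrected 0.55), and of the 12 collagen enzymes 5 stood higher and 3 lower (median 0.13, corrected 0.19). P4HA1 (1271, 1354 and 1308 CPM) and ERO1A (519, 559.6 and 549 CPM) stood above small spheroids by log2 differences of 1.72 and 1.75 (corrected 1.24 and 1.13), and the glucose transporter SLC2A3, at 1.8, 1.67 and 2.14 CPM in small spheroids, stood at 16.1, 17.8 and 12.6 CPM (3.05, corrected 2.84). CA9 (9.68, 12.9 and 10.8 CPM, -0.30, adjusted p = 0.177) and NDRG1 (0.17, adjusted p = 0.204) did not pass. Of the 20 secreted luminal genes 14 were lower in large spheroids than in small ones and 3 higher (median -0.695, corrected -0.64). SCGB2A2 stood at 951, 899 and 1181 CPM in large ones (-0.83, adjusted p = 1.85e-05, corrected -1.24) and TFF3 at 9.33, 9.17 and 13.4 CPM (-2.12, corrected -1.63). AKR1C1 stood at 6.66, 5.91 and 4.89 CPM in large spheroids, lower than in small ones by a log2 difference of -4.21 (corrected -4.64), and CYP1A1 at 28.6, 25.1 and 25.6 CPM (-1.56, corrected -1.31). ERBB2 stood at 6531, 6074 and 5585 CPM, -0.93 relative to small spheroids (adjusted p = 1.41e-06, corrected -0.48), and EGFR at 302, 316 and 306 CPM, 0.80 (corrected 0.65).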

How the data were processed

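RNA of 12 AU565 libraries, 3 a format, was made with TRIzol and TruSeq reagents per the labels' protocols. The deposited table holds whole-number read counts for 16020 genes, per the file headers. FeatureCounts, limma and the hg38 build are named in the submitters' processing notes, no source used here gives their versions, the aligner or the strand setting. Rows with a gene ID but no symbol (164, 0.0705% of counts) stayed in all steps but naming. Of all rows, 15851 (98.9%) matched RefSeq, which gave positions and promoters on GRCh38.p14, and 15394 (96.1%) had a GC content and length from GENCODE.

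Counts of all 12 libraries were fitted with edgeR 4.0.16 in R 4.3.3 (glmQLFit, glmQLFTest), 1 coefficient a format, trimmed mean scaling and filterByExpr at a minimum count of 10, leaving 15175 genes. The SE of a log2 fold change is its size over the square root of the F statistic. The correction used a natural spline with 6 degrees of freedom on GC content and on length per library, as offsets. The other alternatives were DESeq2 1.42.0, limma-voom (limma 3.58.1), library totals, no filter, the 6 libraries alone, a replicate block, monolayer 3 alone, and leaving out each library. The fits were tested on simulated data. Intervals of count ratios are exact binomial at 95% and cover counting error only.

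The named genes comprise, by log2 fold change, the 12 highest and the 12 lowest (at least 10 CPM, no overlap), up to 6 members of each list by size of change, a fixed set of 20 genes, and markers of other cell types above 5 CPM. Not all of these are named. Genes outside this rule, such as PLK1, CDC20, CCND1, HK2, BNIP3, LCN2, CEACAM6, SLC2A3 and NRG1, were chosen after their values were seen. Members and lists were chosen with earlier results of these data known. Same-numbered monolayer and small spheroid libraries did not deviate together (correlations of -0.0458, -0.0457 and -0.0661), so the main fit did not pair them. Same-numbered monolayer and large spheroid libraries had correlations of 0.0895, 0.154 and 0.217, against -0.188 to 0.0856 for differing numbers. What they share was not tested.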

Additional observations from a re-analysis of the deposited data

Results flagged for a closer look

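ERBB2 differed between the spheroid sizes against the same monolayers: the log2 fold change was 0.59 in small spheroids and -0.34 in large ones, and the difference between the sizes, tested directly, was -0.93 (adjusted p = 1.41e-06 by edgeR's quasi-likelihood test). Its level was 11587, 11230 and 11776 CPM in small and 6531, 6074 and 5585 CPM in large spheroids, with no overlap. After the GC and length correction the difference between the sizes was -0.48 (adjusted p = 1.26e-05). The rise in small spheroids over monolayers was no longer called after that correction, as given above.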

How the results depend on the processing

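Under the GC and length correction, genes called with at least a 2-fold change fell from 4637 to 2210 between small spheroid and monolayer, and from 3005 to 1549 between large and small spheroid; fewer genes (14638) were tested there. The correction turned the sign of B2M (0.093), CTSD (-0.094), E2F1 (-0.091), EGFL7 (-0.22), ERO1B (0.085), FASN (-0.90), GRB7 (-0.23), PLK1 (-0.54) and POLD1 (-0.03), whose cause was not tested. Against monolayer 3 alone MYH6 came to 4.53 and MYH7 to 0.83, as that library held almost none of either. Leaving out 1 library gave 10360 to 10668 called genes between small spheroid and monolayer (5181 to 5486 higher, 4993 to 5270 lower, 4614 to 4855 at least 2-fold) and 9296 to 9637 between the spheroids (4517 to 4770 higher, 4647 to 4867 lower, 2899 to 3226 at least 2-fold). Monolayer 3 alone gave 8975 calls, and 8771 of the 10968 (80%) were called the same way. With DESeq2, 10709 of 10965 (97.7%) were called the same way. A fit of the 6 compared libraries alone, whose spread held no other format, called 11320 of 14461 genes. Library totals as scaling moved the median of all genes to -0.145, kept 10167 calls (92.7%), and gave 4817 higher and 6236 lower. Library totals and the GC and length correction each moved 38 of 48 list medians by more than the spread between replicates. Monolayer 3 alone moved 24 of the 48, the 6 libraries alone 10, and leaving out 1 library 5 to 10. The replicate block gave 10833 calls between small spheroid and monolayer and 9873 between the spheroids, with 10782 of the 10968 (98.3%) in the same direction. Of the 10968 calls between small spheroid and monolayer, none was called in the opposite direction under library totals, DESeq2, limma-voom, no filter, 6 libraries, the block, monolayer 3 alone or leaving out 1 library; this was not counted for large against small spheroids. Low counts limit the genes named with 3 or fewer counts in small spheroids. Count ratios or lower bounds are given for these, except for SOX10, given by counts alone. For TYRP1, CDH1 and ANKRD1 fitted values are given as well.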
